A study of Homo sapiens with 6 samples.

Results

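The subunits of the constitutive proteasome were examined as 41 genes, chosen by symbol: every gene whose symbol is PSMA, PSMB, PSMC, PSMD or PSME followed by digits alone, apart from the immunoproteasome genes PSMB8 and PSMB9. They are 41 of the 24494 distinct genes that the deposited array table names with a single symbol, and the symbol rule uses no measured value. That rule also keeps the inducible PSMB10, the tissue-specific PSMA8 and PSMB11, and the assembly chaperones PSMD5, PSMD9 and PSMD10. All of these are counted among the subunits here. All 6 samples are subcutaneous xenografts of 1205Lu, a human metastatic melanoma cell line, grown for about 6 weeks in NSG mice, which lack mature lymphocytes and natural killer cells but keep macrophages, vessels and fibroblasts of their own. In 3 control tumours the cells carried a non-target short hairpin RNA, and in 3 Shp2 knockdown tumours a short hairpin RNA against Shp2, the tyrosine phosphatase encoded by PTPN11. The labels do not say how many hairpin sequences or clones were used, nor the age of the mice, nor whether each tumour came from its own mouse, and the p-values then cover the spread of these samples alone, which may be technical. The comparison asks which transcripts differ once SHP2 is depleted in the tumour cells. PTPN11 stood at 8.47, 8.76 and 9.05 in the 3 control tumours and at 6.92, 6.34 and 6.88 in the 3 knockdown tumours, a difference of -2.05 (SE 0.21, limma adjusted p = 0.034), so each knockdown tumour lay below each control tumour.

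The proteasome is the main protease of the cytosol and nucleus and degrades proteins tagged with ubiquitin. Its core particle is a barrel of alpha rings, which gate the entrance, and beta rings, which hold the threonine proteases. A regulatory particle caps the barrel: its base carries a ring of ATPases that unfold and thread the substrate, and its lid carries the enzyme that removes ubiquitin. Alternative activators of the PSME group open the same gate without ATP. Subunit genes are known to be transcribed in concert, in mammals in large part through NFE2L1, a membrane-bound factor that binds antioxidant response elements when proteasome activity is limiting, and tumour cells such as melanoma cells depend on this capacity.

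No subunit passed the test between the groups. Values are log2 GCRMA values, a scale on which an increase of 1 is a doubling, and differences are knockdown minus control. Of the 41 genes, 37 passed the filter on low values (above 4 in at least 3 of the 6 arrays) and were tested with limma within all 12541 genes that passed. The number past a Benjamini-Hochberg adjusted p of 0.05 was 0 of 37, beside 0.00797% of all genes tested, and the adjusted p was 1.00 for each. At an unadjusted p under 0.05 there were 0 of 37, beside 2.54% of all genes. The groups overlapped for each of the 37: 0 lay wholly higher in knockdown tumours, beside 3.86% of all genes, and 0 wholly lower, beside 2.81%. Differences ran from -0.06 for PSMD5 to 0.36 for PSMD12, with standard errors of 0.15 to 0.24. The 95% intervals, taken over all 37 genes, lay within -0.52 to 0.84, so on the linear scale a change beyond 0.699-fold or 1.78-fold lay outside the interval of every tested subunit.

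Of the 37 differences, 32 were positive and 5 negative. A positive difference was found for 62.0% of all genes tested, and the median was 0.15 over the subunits and 0.05 over all genes. Of the 7006 genes that exceeded the negative control percentile (the 95th, over control features of each array) in at least 3 arrays, 36 subunits among them, 68.7% were positive, with a median of 0.08. By role, the median difference was 0.13 for 6 alpha ring genes, 0.22 for 8 beta ring genes, 0.12 for 6 ATPases, 0.05 for 2 other base subunits, 0.19 for 8 lid subunits, -0.05 for 3 base assembly chaperones with PSMD names and 0.15 for 4 activators. The core particle as a whole gave 0.16 and the regulatory particle 0.15. No difference between roles was tested. The count of positive differences depended on which tumours entered the fit. Without control tumour 1, 24 of the 37 differences were positive, beside 46.3% of all genes. Without knockdown tumour 2, 28 were positive, beside 54.4% of all genes. Without both, 9 were positive, beside 37.7% of all genes, and the median was -0.03 beside -0.05 for all genes. These 2 tumours were singled out after their values were seen, as those that hold most of the lowest and highest subunit values, so leaving both out lowers the difference by construction. Without control tumour 1 and knockdown tumour 1, the arrays of least contrast in each group, 33 were positive, beside 58.0% of all genes. The subunit median was then 0.12, and this choice was also made after seeing the data. No subunit passed an adjusted p of 0.05 in any of these fits.

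**Figure D1:**
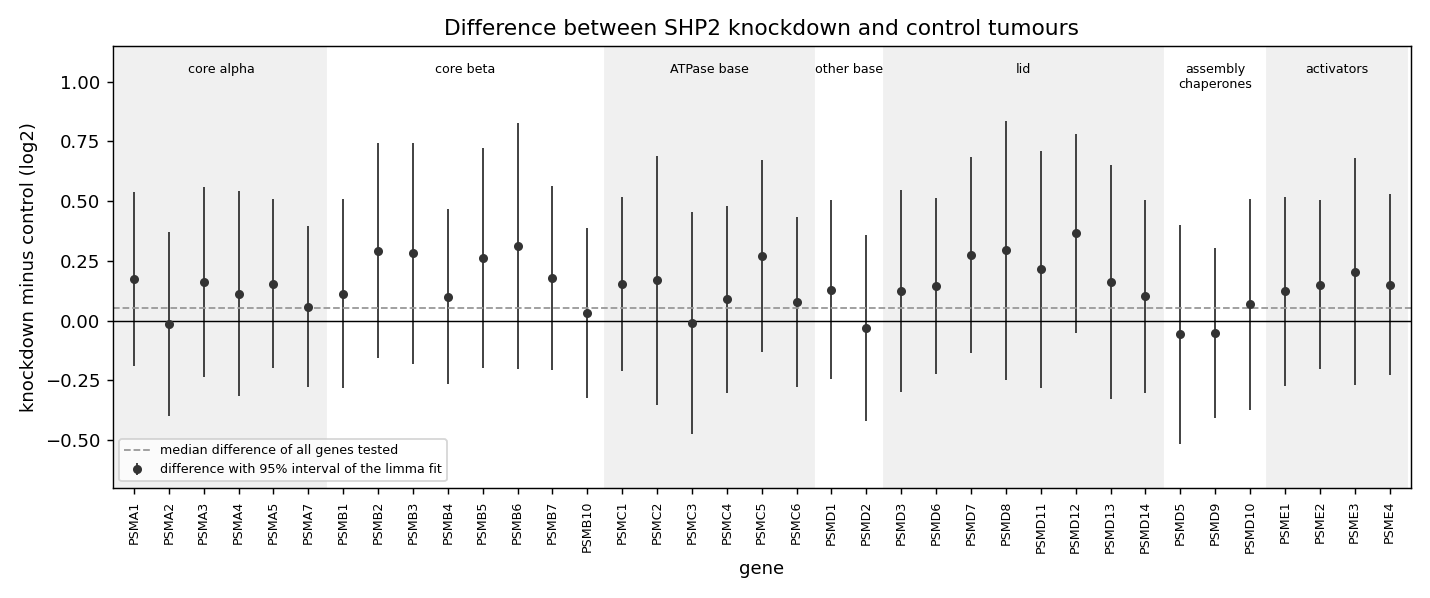
Difference between knockdown and control tumours (vertical axis, log2 units) for each tested subunit gene (horizontal axis, ordered by role), with the 95% interval of the limma fit as bars. Differences run from -0.06 to 0.36, every interval includes 0, and the dashed line marks the median of all genes tested, 0.05.

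The same array set the lowest value of most subunits. Control tumour 1 held the lowest of the 6 values for 28 of the 37 genes, against 45.9% of all genes tested, and knockdown tumour 2 held the highest for 28 of the 37, against 28.4% of all genes. Among the 7006 genes above the negative control percentile these shares were 59.9% and 36.2%. Measured from each gene's own mean over the 6 tumours, the median deviation of the subunits ran -0.31, -0.01 and 0.12 over the controls and -0.07, 0.25 and 0.10 over the knockdown tumours, each in numbered order. Over all genes tested it was -0.16, -0.01 and 0.10, then -0.06, 0.10 and 0.05, and over the 7006 genes above the percentile -0.25, -0.01 and 0.15, then -0.08, 0.15 and 0.06. In control tumour 1, 35 subunits lay below their own mean, and in knockdown tumour 2 all 37 lay above it. Knockdown tumour 1 lay below control tumour 3 for 34 of 37 subunits (91.9%), for 70.9% of all genes and for 83.3% of the genes above the percentile, so most measured genes had this order too.

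The control features also differed between arrays. The mean of the 1626 positive control features minus that of the 3575 negative control features came to 3.45, 3.86 and 3.96 for the controls and 3.76, 4.01 and 4.01 for the knockdown tumours in numbered order, so the array of control tumour 1 had the least contrast, and its negative control features had the highest 95th percentile (5.90, against 5.09 to 5.43 on the other arrays). Without control tumour 1 the subunit median was 0.04, and 46.3% of all genes had a positive difference. With the contrast as a covariate, a fit added after seeing the data, 19 of 37 were positive and the median was 0.01, beside 42.6% positive and a median of -0.03 for all genes. The lowest contrast was in a control tumour (3.45) and the highest in knockdown tumours (4.01). The covariate can therefore take up part of the group difference, and this fit cannot separate contrast from group. The part of array contrast in the subunit differences was not tested.

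**Figure D2:**
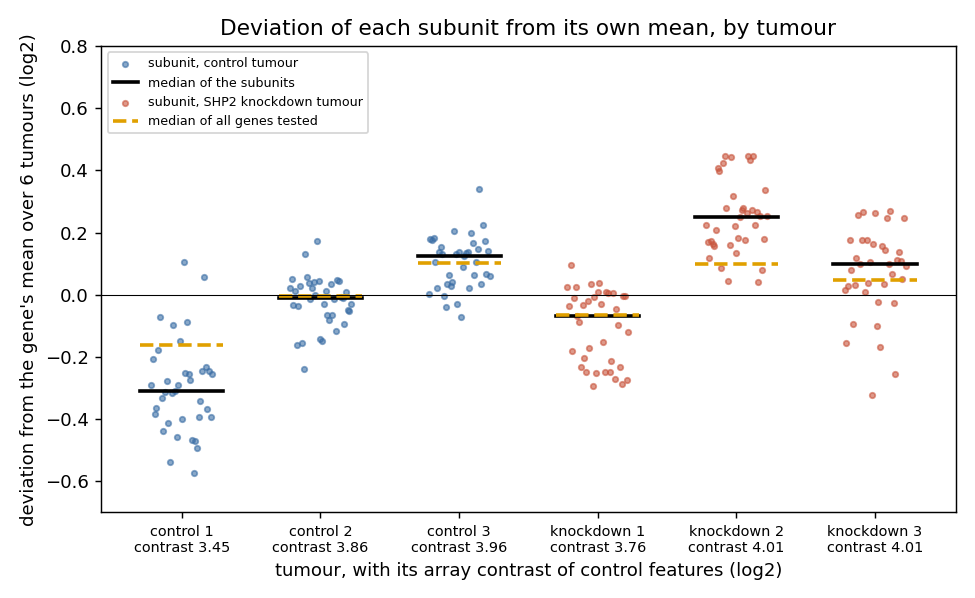
Deviation of each of the 37 tested subunits from its own mean over the 6 tumours (vertical axis, log2 units), by tumour (horizontal axis, with the contrast between positive and negative control features of its array in log2 units). Points are genes, black bars the median of the subunits and dashed bars the median of all genes tested; subunit medians run from -0.31 in control tumour 1 to 0.25 in knockdown tumour 2.

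The spread within the controls was larger than the group difference for each tested subunit. The median range over the 3 control tumours was 0.46 for the subunits and 0.43 for all genes tested, and the median range over the knockdown tumours was 0.34 and 0.35. The size of the difference was smaller than the control range for 37 of 37 subunits and for 91.3% of all genes. It was not smaller than the knockdown range for every subunit, PSMD12 being an exception.

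**Figure D3:**
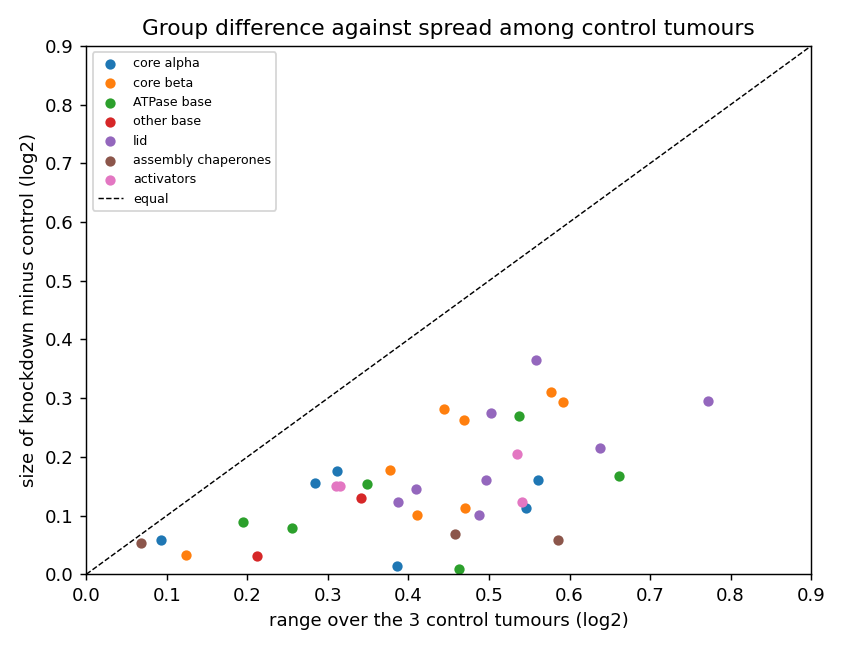
Size of the knockdown minus control difference (vertical axis, log2 units) against the range over the 3 control tumours (horizontal axis, log2 units) for the 37 tested subunits, coloured by role. All points lie below the dashed line of equality, with differences up to 0.36.

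Of the beta ring genes, PSMB5, PSMB6 and PSMB7 encode the constitutive proteases of chymotrypsin-like, caspase-like and trypsin-like activity, and PSMB5 is the main target of bortezomib. PSMB5 was 7.12, 7.58 and 7.49 in the 3 control tumours, in order, and 7.32, 7.95 and 7.70 in the 3 knockdown tumours, a difference of 0.26 (SE 0.21, 95% interval -0.20 to 0.72). PSMB6 was 7.66, 8.24 and 8.23 in the 3 control tumours, in order, and 7.95, 8.64 and 8.47 in the 3 knockdown tumours, a difference of 0.31 (SE 0.23, 95% interval -0.20 to 0.83). PSMB7 was 7.78, 8.08 and 8.16 in the 3 control tumours, in order, and 8.07, 8.37 and 8.10 in the 3 knockdown tumours, a difference of 0.18 (SE 0.17, 95% interval -0.21 to 0.56). In all 3, control tumour 1 was lowest and knockdown tumour 2 highest, and knockdown tumour 1 lay below control tumours 2 and 3, so the groups overlapped. The fold change was 1.20, 1.24 and 1.13 on the linear scale.

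The structural beta subunits gave no call either. PSMB2, which had the smallest p of the ring (unadjusted 0.18 in limma), was 7.81, 8.10 and 8.40 in control and 8.16, 8.66 and 8.37 in knockdown tumours, a difference of 0.29 (SE 0.20). Its second feature, which did not stand for the gene, lay between 4.19 and 4.39. With the mean of all features of a gene, PSMB2 differed by 0.16. The median of the beta ring was then 0.17, below that of the lid, 0.19. PSMB3 differed by 0.28 (SE 0.21), PSMB1 by 0.11 (SE 0.18) and PSMB4 by 0.10 (SE 0.16). PSMB10, which the rule keeps although it is the interferon-inducible protease that replaces PSMB7, was 5.23, 5.34 and 5.35 in control and 5.15, 5.37 and 5.50 in knockdown tumours. It differed by 0.03 (SE 0.16) and was above the 95th percentile of negative controls in 3 arrays. PSMB11, the thymus-specific subunit, lay between 2.97 and 3.50, below the low-value filter and above that percentile in 0 arrays, and was not tested.

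The promoter windows of PSMB5, the bortezomib target, run from 250 bases before to 50 after each of 2 starts in the RefSeq table (GRCh38.p14). The first lies at chr14:23035171-23035470, minus strand, and capitals mark its CCAAT box. The second lies at chr14:23034851-23035150, minus strand, and holds 0 matches to CCAAT, TGACNNNGC or CCGGAAG.
PSMB5, first start: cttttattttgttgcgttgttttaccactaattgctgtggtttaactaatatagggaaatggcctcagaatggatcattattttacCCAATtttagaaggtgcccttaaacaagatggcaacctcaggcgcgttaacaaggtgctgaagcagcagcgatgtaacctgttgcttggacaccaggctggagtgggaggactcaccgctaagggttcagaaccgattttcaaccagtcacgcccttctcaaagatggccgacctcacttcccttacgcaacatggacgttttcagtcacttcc
PSMB5, second start: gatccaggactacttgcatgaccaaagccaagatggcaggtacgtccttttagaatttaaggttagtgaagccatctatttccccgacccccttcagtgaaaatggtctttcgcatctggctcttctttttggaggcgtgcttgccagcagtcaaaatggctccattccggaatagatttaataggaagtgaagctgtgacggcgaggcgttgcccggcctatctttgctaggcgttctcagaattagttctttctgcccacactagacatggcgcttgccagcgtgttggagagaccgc

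The alpha ring closes the barrel and docks the activators. PSMA1, with the smallest p of the ring (unadjusted 0.31 in limma), was 5.96, 6.27 and 6.25 in control and 6.27, 6.47 and 6.26 in knockdown tumours, a difference of 0.18 (SE 0.16). The groups overlapped, since knockdown tumour 3 lay below control tumour 2. PSMA2, the one tested alpha gene with a negative difference, was 7.56, 7.82 and 7.95 in control and 7.73, 7.94 and 7.61 in knockdown tumours, a difference of -0.01 (SE 0.17) that turned positive in 5 of the alternatives. PSMA4, whose amino-terminal tail closes the gate, differed by 0.11 (SE 0.19). The differences were 0.16 (SE 0.18) for PSMA3, 0.15 (SE 0.16) for PSMA5 and 0.06 (SE 0.15) for PSMA7, a subunit for which the 6 values ran from 8.74 to 8.99. PSMA6 lay between 3.44 and 3.78 and PSMA8, the testis-specific alpha subunit, between 1.46 and 1.73. Both stayed below the filter, although PSMA6 is an obligate subunit of the ring.

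**Figure D4:**
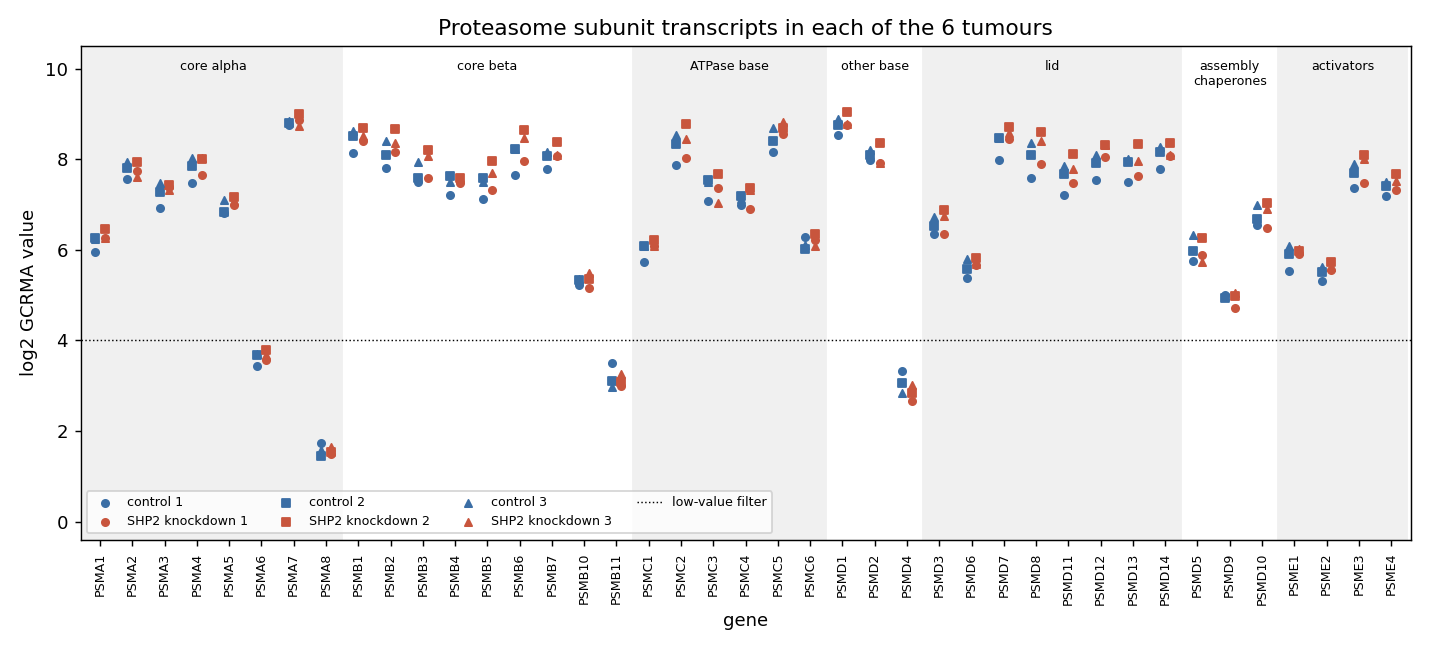
Log2 GCRMA value (vertical axis) of each of the 41 subunit genes (horizontal axis, ordered by role) in the 3 control and the 3 knockdown tumours, 1 point per tumour. PSMA6, PSMA8, PSMB11 and PSMD4 lie below the dotted filter line at 4; levels of different genes come from different features and are not comparable.

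In the regulatory particle, the ATPases PSMC1 to PSMC6 form the unfolding ring. PSMC5 had the smallest p among them (unadjusted 0.17 in limma) and was 8.16, 8.41 and 8.69 in control and 8.56, 8.69 and 8.82 in knockdown tumours, a difference of 0.27 (SE 0.18). Control tumour 3 lay above 2 of the 3 knockdown tumours. PSMC3 was 7.07, 7.54 and 7.49 in control and 7.35, 7.68 and 7.04 in knockdown tumours, a difference of -0.01 (SE 0.21), the one negative value of the ring; knockdown tumour 3 was its lowest value and knockdown tumour 2 its highest. PSMC2 was 7.88, 8.33 and 8.54 in control and 8.04, 8.77 and 8.44 in knockdown tumours, a difference of 0.17 (SE 0.23). PSMC1, whose feature the table places at chr14:90722839-90738966 (GRCh37), differed by 0.15 (SE 0.16), with the same value, 6.09, in control tumours 2 and 3. PSMC4 differed by 0.09 (SE 0.18) and PSMC6 by 0.08 (SE 0.16), and PSMC6 was highest among the controls in control tumour 1.

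Of the other base subunits, PSMD2 docks the shuttles that deliver ubiquitinated proteins and PSMD1 holds the ubiquitin receptor ADRM1. PSMD1 was 8.54, 8.76 and 8.88 in control and 8.76, 9.04 and 8.77 in knockdown tumours, a difference of 0.13 (SE 0.17). PSMD2 was 7.99, 8.09 and 8.20 in control and 7.92, 8.35 and 7.91 in knockdown tumours, a difference of -0.03 (SE 0.17), with knockdown tumour 2 highest and knockdown tumours 1 and 3 lowest. PSMD4, a ubiquitin receptor whose feature the table places at chr1:151227179-151239955 (GRCh37), lay between 2.66 and 3.33, below the filter and above the negative control percentile in 0 arrays, and was not tested.

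All 8 lid genes kept by the symbol rule had positive differences, and control tumour 1 was lowest and knockdown tumour 2 highest for each of the 8. SHFM1, a small lid subunit that the rule leaves out, differed by -0.33 (SE 0.16). It was highest in control tumour 1 (4.85) and lowest in knockdown tumour 2 (4.32), and exceeded the negative control percentile in 0 arrays. Without these 2 tumours 2 of the 8 differences of the kept lid genes were positive, and with the contrast covariate 4. PSMD12, a scaffold of the lid, had the smallest p of all 37 subunits (unadjusted 0.079, adjusted 1.00 in limma). It was 7.55, 7.92 and 8.10 in the 3 control tumours, in order, and 8.05, 8.31 and 8.31 in the 3 knockdown tumours, a difference of 0.36 (SE 0.19, 95% interval -0.05 to 0.78), or 1.29-fold. Control tumour 3 lay above knockdown tumour 1, so the groups overlapped by these 2 tumours. PSMD14, the metalloprotease that cleaves ubiquitin from the substrate, was 7.78, 8.17 and 8.27 in control and 8.08, 8.35 and 8.10 in knockdown tumours, a difference of 0.10 (SE 0.18). PSMD8, whose yeast counterpart joins the lid last, was 7.58, 8.08 and 8.35 in control and 7.90, 8.60 and 8.40 in knockdown tumours, a difference of 0.29 (SE 0.24), and had the widest spread of the subunits among control tumours. PSMD7, the partner of PSMD14, differed by 0.27 (SE 0.18) and PSMD11, a lid scaffold, by 0.21 (SE 0.22). PSMD13 differed by 0.16 (SE 0.22), PSMD6 by 0.15 (SE 0.17) and PSMD3 by 0.12 (SE 0.19).

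The promoter of PSMD12 is shown as that of the subunit with the smallest p (chr17:67366528-67366827, minus strand, GRCh38.p14, from RefSeq). Capitals mark, in order, a TGACNNNGC match, the antioxidant response element core, from base -165 counted from the start, and a CCGGAAG match, the ETS factor core, on the other strand from base -8.
PSMD12: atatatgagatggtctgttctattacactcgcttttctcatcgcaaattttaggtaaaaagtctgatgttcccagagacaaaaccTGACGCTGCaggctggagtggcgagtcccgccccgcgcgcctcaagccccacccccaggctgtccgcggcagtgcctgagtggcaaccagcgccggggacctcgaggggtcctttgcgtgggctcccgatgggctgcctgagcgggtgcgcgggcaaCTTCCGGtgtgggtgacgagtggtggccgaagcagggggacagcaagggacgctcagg

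The genes PSMD5, PSMD9 and PSMD10 carry subunit names but encode chaperones that escort the ATPase ring during assembly and leave the finished particle. Here 2 of the 3 differences were negative. PSMD5 was 5.75, 5.98 and 6.33 in control and 5.89, 6.26 and 5.74 in knockdown tumours, a difference of -0.06 (SE 0.21), which turned positive without control tumour 3 or knockdown tumour 3. PSMD9 differed by -0.05 (SE 0.16) and exceeded the negative control percentile in 0 arrays. PSMD10, also known as gankyrin, was 6.54, 6.68 and 6.999 in control and 6.49, 7.03 and 6.91 in knockdown tumours, a difference of 0.07 (SE 0.20). Control tumour 1 was the lowest of the 6 tumours for 0 of the 3 genes, and knockdown tumour 1 was lowest for PSMD9 and PSMD10.

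All 4 activator genes had positive differences, between 0.12 and 0.20, and control tumour 1 was the lowest tumour for each. PSME1 and PSME2 encode the paired subunits of the interferon-gamma-inducible activator that favours peptide production for antigen presentation. PSME1 was 5.54, 5.91 and 6.08 in control and 5.90, 5.98 and 6.01 in knockdown tumours, a difference of 0.12 (SE 0.18), and without control tumour 1 this was -0.03. PSME2 was 5.32, 5.51 and 5.63 in control and 5.56, 5.74 and 5.61 in knockdown tumours, a difference of 0.15 (SE 0.16). PSME3, the nuclear activator, was 7.36, 7.70 and 7.89 in control and 7.48, 8.09 and 7.997 in knockdown tumours, a difference of 0.20 (SE 0.21). PSME4, a large activator of the nucleus, was 7.18, 7.40 and 7.49 in control and 7.31, 7.68 and 7.52 in knockdown tumours, a difference of 0.15 (SE 0.17). In each of the 4, at least 1 knockdown tumour lay below control tumour 3. The immunoproteasome proteases left out by the rule, PSMB8 and PSMB9, differed by 0.45 (SE 0.25) and 0.28 (SE 0.20), beside 0.03 for the third such protease, PSMB10. PSMB8 was 6.13 ± 0.42 in control and 6.57 ± 0.36 in knockdown tumours (SD, n = 3), and none of these genes passed the test.

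The promoters of PSME1 and PSME2 are shown as a pair, since the 2 genes lie close together on chromosome 14 with 1 gene, EMC9, annotated between them in RefSeq. That of PSME1 lies at chr14:24135944-24136243, plus strand, and that of PSME2 at chr14:24146561-24146860, minus strand, both in GRCh38.p14, and capitals mark the TGACNNNGC match in each, from bases -86 and -175.
PSME1: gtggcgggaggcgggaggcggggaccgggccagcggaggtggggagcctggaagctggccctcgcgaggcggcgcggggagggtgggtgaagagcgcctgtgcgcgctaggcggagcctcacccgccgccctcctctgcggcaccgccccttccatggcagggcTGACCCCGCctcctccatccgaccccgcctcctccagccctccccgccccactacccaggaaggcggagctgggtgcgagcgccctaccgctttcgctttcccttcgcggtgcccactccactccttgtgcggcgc
PSME2: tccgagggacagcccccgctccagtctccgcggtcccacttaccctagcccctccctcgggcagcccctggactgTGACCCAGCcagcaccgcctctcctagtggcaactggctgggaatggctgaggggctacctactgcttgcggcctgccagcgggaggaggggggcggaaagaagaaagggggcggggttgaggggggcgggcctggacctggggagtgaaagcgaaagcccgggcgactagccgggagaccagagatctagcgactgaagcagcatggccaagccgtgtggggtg

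Across the subunits, 36 of the 41 genes have an entry in the RefSeq promoter table, with 42 windows of 300 bases. PSMA7, PSMB1, PSMB6, PSMB7 and PSMD4 have none. Both strands were searched, and a match is a description and not a binding site. The antioxidant response element core TGACNNNGC was found in 28.6% of the 42 windows, beside 13.3% of all 35116 windows and 14.5% of the 12184 windows of tested genes. The ETS core CCGGAAG was found in 31.0%, beside 10.3% and 15.8%. The CCAAT box was found in 42.9%, beside 34.6% and 34.1%, and the GC box GGGCGG in 64.3%, beside 45.0% and 67.3%. Each motif was counted without regard to overlap with another, and windows of 1 gene can overlap. The median difference was 0.13 for 12 tested subunits with TGACNNNGC and 0.15 for 21 without, and 0.15 for 11 with CCGGAAG and 0.13 for 22 without, a description with no test.

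The rest of the pathway also gave no call, and of the genes listed here and as markers, EGR1 alone reached an unadjusted p under 0.05 in limma. Of the 7 genes listed as assembly factors with the inhibitor PSMF1, 0 passed, with 5 positive and 2 negative differences and a median of 0.22. PSMG1 and PSMG2, the chaperone pair that starts the alpha ring, differed by 0.35 (SE 0.21) and 0.37 (SE 0.22). Of 10 further components and associated factors, 0 passed, with 8 positive differences. The deubiquitinase USP14 differed by 0.34 (SE 0.25). SHFM1, the small lid subunit also named SEM1, was 4.74 ± 0.10 in control and 4.42 ± 0.13 in knockdown tumours (SD, n = 3), and its groups did not overlap, but it exceeded the negative control percentile in 0 arrays. Among all genes tested, 2.81% lay wholly lower in knockdown tumours. Of 11 tested ubiquitin shuttles and extraction factors, 0 passed, with NPLOC4, a cofactor of the VCP segregase, at 0.26 (SE 0.23) and ZFAND2A, a stress-induced proteasome-binding protein, at 0.13 (SE 0.15).

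Of 5 tested genes for ubiquitin and its activating enzymes, 0 passed. UBB, a polyubiquitin gene, differed by 0.19 (SE 0.15), and its groups did not overlap, with knockdown tumours higher, as for 3.86% of all genes tested. Its levels were above the negative control percentile in 0 arrays. Among 10 tested regulators of proteasome transcription, 0 passed, with 7 positive differences and a median of 0.06. NFE2L1 was 7.64, 7.90 and 8.001 in the 3 control tumours, in order, and 7.74, 8.17 and 8.20 in the 3 knockdown tumours, a difference of 0.19 (SE 0.19). NFE2L3, its relative, differed by 0.44 (SE 0.25), and NFYB, a subunit of the CCAAT-binding factor, by -0.17 (SE 0.16).

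Human arrays can also read mouse transcripts of similar sequence, and in bulk tissue fewer cells of a type and less RNA per cell cannot be told apart. Above the negative control percentile in at least 3 arrays were 1 of 8 macrophage markers (CD68), 1 of 5 endothelial markers (ENG), 2 of 7 fibroblast markers (COL1A1 and PDGFRB), 0 of 4 keratinocyte and 0 of 6 lymphocyte markers. The summed level of the macrophage list, as the log2 of the sum of linear values, was 7.23 to 7.90 in control and 7.48 to 8.57 in knockdown tumours. It was 7.14 to 7.76 in control and 7.28 to 8.05 in knockdown tumours for the endothelial list and 8.58 to 8.80 in control and 8.47 to 8.89 in knockdown tumours for the fibroblast list, and 11.36 to 11.87 in control and 11.53 to 11.92 in knockdown tumours for 7 heat shock genes, with HSPA8 at 0.03 (SE 0.17) and HSPB1 at 0.24 (SE 0.18). The macrophage sum came mostly from CD68 and the endothelial sum mostly from ENG. Of 7 immediate early genes, 6 were tested and 0 passed, with EGR1 at 0.41 (SE 0.18) and JUN at 0.10 (SE 0.18). FOSB, named after its values were seen because its groups did not overlap, differed by 0.14 (SE 0.15), also above the percentile in 0 arrays. It lay wholly higher in knockdown tumours, as did 3.86% of all genes tested. Of 8 melanoma lineage markers, S100B and SOX10 exceeded the percentile in at least 3 arrays, and MITF, MLANA, PMEL, TYR, DCT and TYRP1 in 0. The part of these cells and signs in the subunit values was not tested. RefSeq lists 51 pseudogenes of 20 of the subunit genes, 18 of them tested, and the signal of such copies cannot be told apart from that of the gene where they share probe sequence.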

How the data were processed

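Total RNA, extracted with Trizol and biotin-labelled, per the labels' protocols, was measured on Affymetrix arrays, 1 per tumour. The deposited values are log2 values, processed by the authors with GCRMA, per the submitters' processing notes, and a second deposited table held the same values. The GCRMA version is not stated in the labels or headers. Of the 53617 features, 26419 carry 1 gene symbol. The feature of highest mean stood for a gene, and the 12541 genes with at least 3 of 6 arrays above 4 were tested with limma 3.58.1 (R 4.3.3), two-sided, with Benjamini-Hochberg adjustment over all of them. The number of arrays limits the precision: the median SE was 0.19. In simulated data for this comparison, 12% of 50 genes changed by 0.5 and 88% of 50 changed by 1 were recovered. There 9 unchanged genes also passed. The noise was drawn independently for each gene and array, without shifts shared by the genes of an array. More genes were changed there than passed here, which eases the adjustment, so recovery in these data may be lower. Subunits and gene lists were chosen with earlier results of these data known. Values in every tumour are given for the catalytic subunits, the activators, and per role the subunit of smallest p and that of largest opposite sign. In other lists the 2 tested genes of smallest p, or for markers of highest mean, are named, except 1 that is not reported here. NFE2L1, PSMA7, PSMB10, PSMC2, PSMD8 and PSMD14 were also given values, after those were seen. Other normalizations, filters, features and variance models, each array left out and the replicate number as a block were tried as alternatives.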

Additional observations from a re-analysis of the deposited data

How the results depend on the processing

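The count of subunits past an adjusted p of 0.05 was 0 under every alternative run, and 0 also at 0.1. Of all genes, 1 passed as reported, PTPN11. That count was 0 with no filter, with quantile normalization, with the ordinary test, with arrays centred on the median of kept genes and with the contrast covariate, 2 without both tumours numbered 1, and 0 to 1 with each array left out. One subunit, PSMD12, reached an unadjusted p under 0.05 under kept-gene centring, quantile normalization and the replicate block, and 0 to 2 subunits did so with an array left out. In the limma fit as reported 2.54% of all genes did so, and the share was not taken for these alternatives. These counts are therefore not read as a result about the subunits. Subunits lying wholly higher in knockdown tumours numbered 5 of 37 under kept-gene centring (4.91% of all genes) and under quantile normalization (6.05%), 12 without both tumours numbered 1 (19.4%), and 0 to 11 with an array left out, the most without knockdown tumour 1 (15.8%), then 8 without control tumour 3 (16.5%). Fewer arrays overlap less by construction. Positive differences numbered 19 with the contrast covariate, beside 42.6% of all genes. They numbered 24 to 36 with an array left out, beside 46.3% to 67.9% of all genes.

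Leaving out control tumour 1 together with knockdown tumour 2 gave the least positive count of the alternatives run, 9 of 37, and 6 subunits then lay wholly lower in knockdown tumours (0 to 1 with a single array left out), beside 19.0% of all genes in the same fit. The median of every role was then negative: -0.018 for the alpha ring, -0.025 for the beta ring, -0.028 for ATPases, -0.14 for other base subunits, -0.074 for the lid, with 6 of 8 genes negative, -0.14 for chaperones and -0.034 for activators. Only some subunits were followed singly across the alternatives. Of those, differences turned negative for PSMB5 (-0.024), PSMB6 (-0.026), PSMB7 (-0.030), PSMD1 (-0.057), PSMD10 (-0.14), PSME1 (-0.039), PSME3 (-0.059) and PSME4 (-0.029). Further subunits also turned negative in this fit and are not listed. This fit, that without both tumours numbered 1, the covariate, kept-gene centring and the filter at the negative control percentile were chosen after seeing the data. The first was run, set aside once its result was known and then restored.

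Of the subunits followed singly, some with small differences changed sign elsewhere. With arrays centred on their median PSMA2 was 0.019, PSMC3 0.025 and PSMD2 0.0028. With the covariate PSMD10 was -0.10, PSME1 -0.026 and PSME3 -0.012. Further subunits, not listed, also turned negative with the covariate and without control tumour 1. With an array left out the range was -0.12 to 0.072 for PSMA2, -0.17 to 0.15 for PSMC3, -0.17 to 0.045 for PSMD2, -0.21 to 0.098 for PSMD5, -0.041 to 0.23 for PSMD10 and -0.031 to 0.24 for PSME1. The cause of these sign changes was not tested. Deviations of same-numbered tumours correlated at 0.42, -0.03 and 0.17. Differently numbered tumours were not compared in this way, so these values cannot decide whether the numbers mark pairs. The fit as reported did not take the numbers as pairs. With the replicate block 5 genes passed, PTPN11, MIR644A, SNORD113-3, SNORD114-2 and SNX29P2, and 1 subunit reached an unadjusted p under 0.05. The share of all genes at that p was not taken for this fit.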

Other observations

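Subtracting from each subunit the median deviation of all subunits in the same tumour reduced the SD over the 6 tumours for 33 of the 37 tested genes, and the median SD went from 0.197 to 0.119. The offset was computed from the same genes, so a reduction follows in part from its construction, and no test was made.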
